A study of Rattus norvegicus with 18 samples.

Results

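The transcripts of antioxidant enzymes, which detoxify superoxide and peroxides, were followed across rat hippocampus samples from 3 diets and 2 training states. The members were the probe sets whose gene symbol in the platform annotation was Gpx1, Gpx4, Sod1, Sod2, Txn1, Prdx1, Prdx2, Prdx5, Prdx6 or Cat. This rule found 10 of the 15923 probe sets on the array, 1 for each gene, and all 10 passed the filter on low values. The probe set for Prdx1 also carries the symbol of Prdx1l1. It is therefore given as Prdx1 or Prdx1l1, which leaves 9 probe sets that name a single gene.

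Superoxide dismutases turn superoxide into hydrogen peroxide. Catalase, glutathione peroxidases and peroxiredoxins then break the peroxide down, and thioredoxin returns several peroxiredoxins to their reduced state. In the brain, where oxygen use is high and membranes are rich in unsaturated lipids, these enzymes are known for limiting oxidative damage, and Gpx4 in particular for protecting membrane lipids.

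Total RNA of the hippocampus was measured on 18 Affymetrix oligonucleotide arrays, 1 for each sample, in a series about learning after fetal alcohol exposure. The alcohol diet had 4 samples trained by a procedure abbreviated CFC and 4 from naive animals, the isocaloric diet 4 trained and 2 naive, and the control diet 2 trained and 2 naive. The labels give neither strain, sex, age nor the time of tissue collection, and they do not spell out CFC. Separate animals and shared litters are not stated for the replicates. Each p-value thus sets a difference only against the spread among these samples, and that spread may be technical.

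Each array had a total signal between 2.92e+06 and 3.13e+06, and the number of arrays limits the precision of every comparison. Of 9 markers of hippocampal and forebrain excitatory neurons, 8 were on the array and all 8 passed the filter. Their summed signal lay between 7946 and 11247 on every array. The sum hides diet differences of single markers. Against control, 3 of the 8 rose and 1 fell in the alcohol diet at an adjusted p under 0.05 (limma). In the isocaloric diet 0 rose and 1 fell. Over all probe sets tested, 19.9% and 7.05% passed. Camk2a was the 1 that fell, at -1.82 in the alcohol and -1.62 in the isocaloric diet on the log2 scale. Nrgn, Slc17a7 and Ncdn rose in the alcohol diet by 0.35, 0.39 and 0.34. Control naive replicate 2 and 4 arrays high in Ttr (transthyretin, a choroid plexus transcript) stood apart, and the called differences are given with and without them. Without the arrays high in Ttr, control trained keeps only replicate 2. Without control naive replicate 2 as well, the control diet keeps 1 array per training state. Those 2 arrays are the ones whose processing notes name the MAS5 algorithm, so control and that note cannot then be told apart. Fewer cells of a type and less RNA per cell cannot be told apart in bulk tissue.

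The upstream sequences of Gpx4 and Sod2 are shown for orientation, since Gpx4 fell and Sod2 rose between the control and isocaloric diets. They are the 250 bases before the first annotated start in RefSeq, build GRCr8, written 5′ to 3′ on the gene's strand. Capitals mark CCAAT or its reverse ATTGG (the CCAAT box) and GGGCGG or its reverse CCGCCC (the GC box), counted on both strands with overlaps allowed. Gpx4 lies on the minus strand, with its window at chr7:10303630-10303879, and Sod2 on the minus strand, with its window at chr1:50050169-50050418.
Gpx4: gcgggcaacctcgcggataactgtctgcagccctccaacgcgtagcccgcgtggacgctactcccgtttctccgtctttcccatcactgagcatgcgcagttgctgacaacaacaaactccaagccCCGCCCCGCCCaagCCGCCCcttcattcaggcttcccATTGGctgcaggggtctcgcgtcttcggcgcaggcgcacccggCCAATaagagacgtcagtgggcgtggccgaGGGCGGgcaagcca
Sod2: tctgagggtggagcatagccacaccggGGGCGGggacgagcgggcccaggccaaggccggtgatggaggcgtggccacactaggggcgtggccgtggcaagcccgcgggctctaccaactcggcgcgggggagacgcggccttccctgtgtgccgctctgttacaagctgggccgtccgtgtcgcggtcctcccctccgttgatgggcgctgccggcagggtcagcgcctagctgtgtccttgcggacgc
The Gpx4 window held 2 CCAAT boxes and 4 GC boxes, and the Sod2 window held 0 CCAAT boxes and 1 GC box. The Gpx4 count depends on the annotated start. A window at chr7:10303538-10303787 held 3 CCAAT boxes and 4 GC boxes, and one at chr7:10303160-10303409 held 0 of each. Among 33469 upstream windows of the same length in the table, 34.0% held a CCAAT box and 30.5% a GC box. The antioxidant response element core TGACNNNGC, which is bound by Nrf2, matched 0 times in the Gpx4 window and 1 time in the Sod2 window, against 10.1% of all windows with a match. These matches describe letters and not binding. Prdx6 had no entry in the table.

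The glutathione peroxidases had the widest ranges of the 6 group means among the members. Gpx4, a selenium enzyme that reduces lipid hydroperoxides within membranes, had the signals 1263.6 and 1223.69 in the 2 isocaloric naive samples. The 4 isocaloric trained samples gave 1416.06, 1379.23, 1412.26 and 1495.37. The control diet gave 1794.51 and 2196.76 in naive and 1656.72 and 1496.63 in trained samples. All 6 isocaloric values lay below all 4 control values, although the highest isocaloric and lowest control values differed by little. The alcohol diet gave 1703.39, 1662.53, 1561.42 and 1451 in naive samples. Alcohol trained samples gave 1505.87, 1737.21, 1714.19 and 1941.57. The alcohol values overlapped both other diets: only 1 of the 8, in alcohol naive replicate 4, lay below the highest isocaloric value.

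Averaged over both training states, Gpx4 fell in the isocaloric diet against control by 0.41 on the log2 scale (SE 0.078, adjusted p = 0.00665, limma). This is a 1.33-fold lower level, with a 95% confidence interval of the log2 difference from -0.57 to -0.25, and 6 of 6 isocaloric samples lay below the control mean of the same training state, the measure used for all such counts here. Against the isocaloric diet, Gpx4 rose in the alcohol diet by 0.31 (SE 0.066, adjusted p = 0.0187, limma), a 1.24-fold higher level seen in 8 of 8 alcohol samples. Its difference between alcohol and control was -0.10 (95% interval -0.25 to 0.05, adjusted p = 0.366, limma). The 3 comparisons share samples, so these values are not independent of each other.

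The Gpx4 difference between isocaloric and control passed the threshold when any 1 array was left out, with adjusted p from 0.000348 to 0.0495 (limma). Without the 4 arrays high in Ttr its value was -0.37 with adjusted p = 0.0729, and without these and control naive replicate 2 it was -0.30 with adjusted p = 0.156 (limma). The difference between alcohol and isocaloric was 0.32 without isocaloric naive replicate 1 (adjusted p = 0.0959) and 0.30 without replicate 2 (adjusted p = 0.118, limma), so the size stayed while the threshold was missed. It was 0.27 without the arrays high in Ttr (adjusted p = 0.103) and 0.27 without these and control naive replicate 2 (adjusted p = 0.0339, limma). The threshold was also missed with the Gapdh 3′ to 5′ ratio as a covariate (0.27, adjusted p = 0.146, limma). That log2 ratio, a measure of RNA quality, ran from 0.09 to 0.48 in the alcohol diet, 0.06 to 0.18 in the isocaloric diet and 0.19 to 0.36 in the control diet.

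Gpx1, the cytosolic selenium enzyme that reduces hydrogen peroxide, had the widest range of group means of the 10 members, 0.81 on the log2 scale, from isocaloric naive to alcohol trained. It gave 220.289 and 208.764 in isocaloric naive and 246.126, 281.844, 451.886 and 182.835 in isocaloric trained samples. The control diet gave 256.539 and 432.365 in naive and 478.2 and 293.14 in trained samples. Samples of 1 group thus differed by more than the diets did. The alcohol diet gave 294.101, 384.441, 282.149 and 251.877 in naive and 281.754, 349.732, 385.967 and 553.255 in trained samples. Gpx1 passed the threshold in none of the 3 averaged diet comparisons. Its log2 differences were 0.46 (SE 0.190) for alcohol against isocaloric and -0.53 (SE 0.225) for isocaloric against control, with adjusted p of 0.165 and 0.150 (limma).

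**Figure D1:**
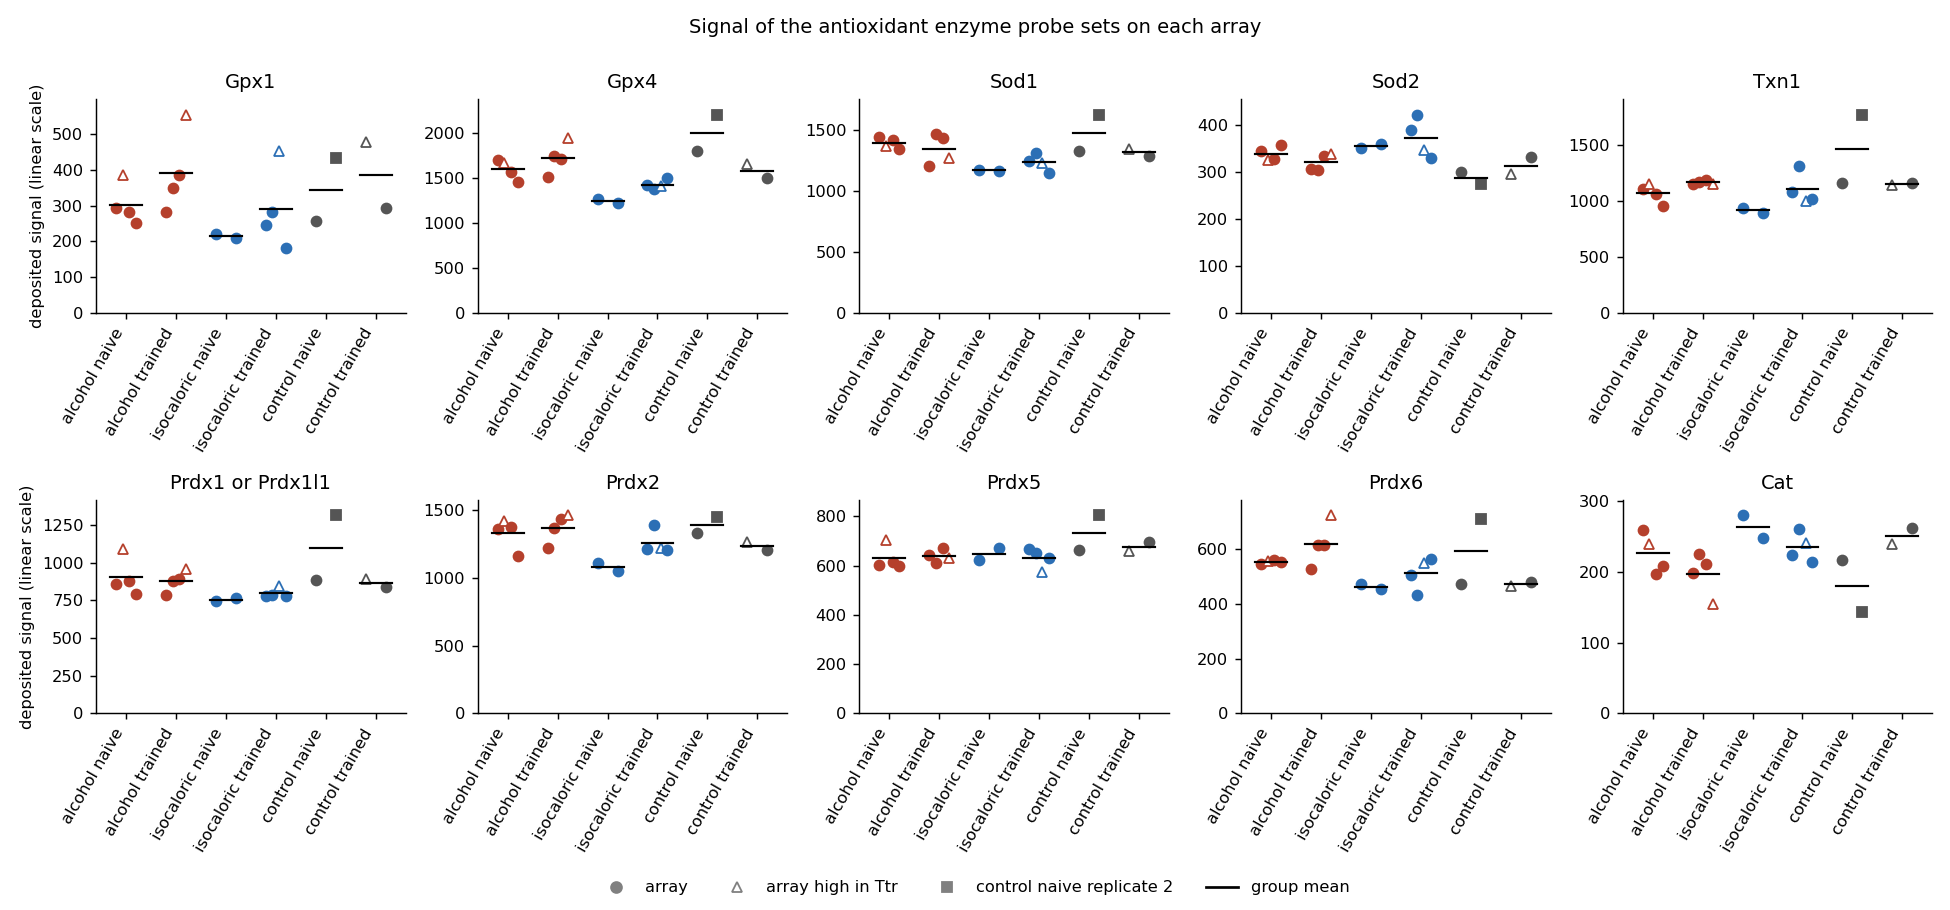
Deposited signal (linear scale, from 0) of the 10 antioxidant enzyme probe sets on each of the 18 arrays, by diet and training; black lines are group means, open triangles the 4 arrays high in Ttr and the square control naive replicate 2. All isocaloric Gpx4 signals (1224 to 1495) lie below all control signals (1497 to 2197), and the square is the highest point for Gpx4, Sod1, Txn1, Prdx1 or Prdx1l1 and Prdx5.

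The spread of Gpx1 went in part with Ttr. Control naive replicates 1 and 2, with low Ttr signals of 107 and 206, also differed in Gpx1, at 256.539 and 432.365. The 4 arrays high in Ttr were alcohol trained replicate 4, alcohol naive replicate 2, isocaloric trained replicate 3 and control trained replicate 1. They had Ttr signals of 5927 to 7331, against 62.5 to 755 on the other arrays. Gpx1 was the highest of its group on all 4 of them. In a fit with an indicator of these arrays, chosen after the data were seen, Gpx1 was 0.70 higher on them (SE 0.127, adjusted p = 0.00715, limma) than on other arrays of the same group. It was the only 1 of the 10 members to pass there, where 0.693% of all probe sets tested did. Prdx1 or Prdx1l1 was also the highest of its group on all 4, with a difference of 0.19 (adjusted p = 0.487, limma).

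Of 10 choroid plexus markers, 8 were on the array, and their summed signal was 8839 to 11035 on these 4 arrays against 765 to 1601 on the others. That sum holds Ttr, which chose the arrays, and the other 7 markers summed to 2311 to 4228 against 683 to 865. Of the other peroxide and superoxide enzymes, Sod3, the extracellular superoxide dismutase, rose there by 0.54 (SE 0.078, adjusted p = 0.00087, limma). With the indicator in the fit, the Gpx1 difference was 0.38 for alcohol against isocaloric (adjusted p = 0.0848) and -0.44 for isocaloric against control (adjusted p = 0.0628, limma). Without these arrays the values were 0.43 (adjusted p = 0.138) and -0.47 (adjusted p = 0.162, limma). Without these and control naive replicate 2, Gpx1 passed for alcohol against isocaloric, at 0.43 with adjusted p = 0.0453 (limma), and was -0.29 for isocaloric against control (adjusted p = 0.46, limma). The part of choroid plexus tissue in the Gpx1 values was not tested.

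**Figure D2:**
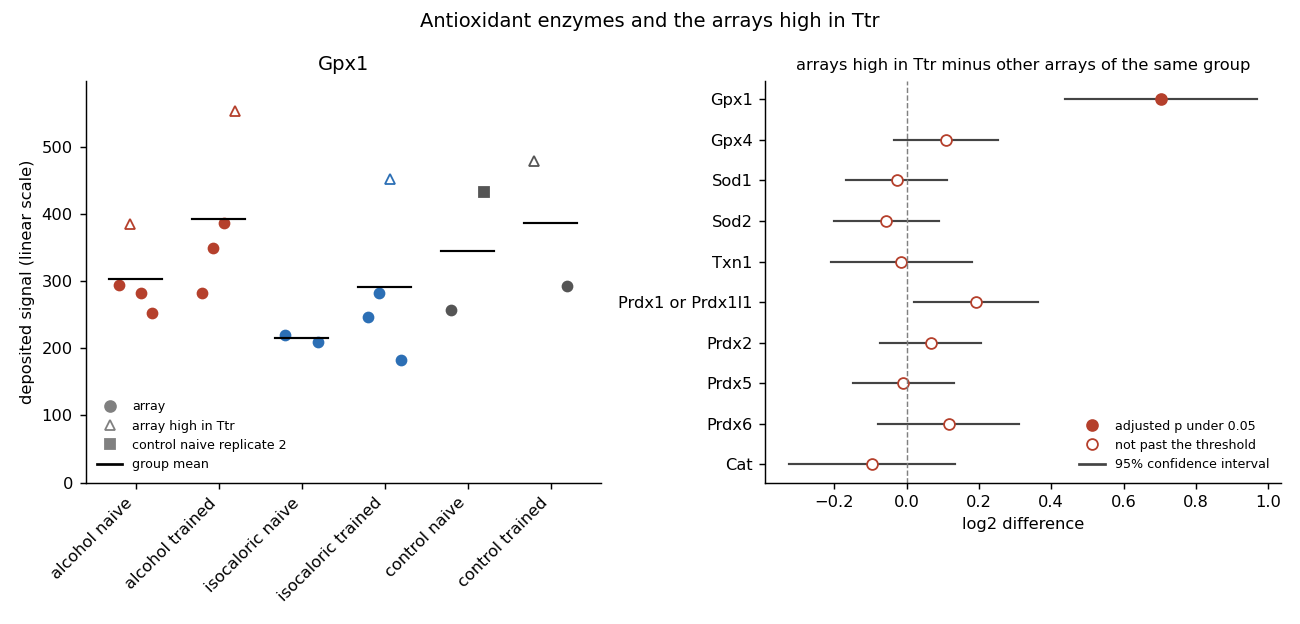
Left, deposited Gpx1 signal (linear scale, from 0) of each array by group, with open triangles for the 4 arrays high in Ttr; right, log2 difference of these arrays from other arrays of the same group for each member, with 95% confidence intervals and filled points for an adjusted p under 0.05. Gpx1 is the 1 filled point, at 0.70, and the triangle is the highest Gpx1 point in each of the 4 groups that hold one.

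Sod1 and Sod2 differed from each other in direction. Sod2, the manganese superoxide dismutase of mitochondria, had the signals 299.537 and 274.842 in control naive and 294.178 and 332.038 in control trained samples. The isocaloric diet gave 349.538 and 358.593 in naive and 388.867, 420.265, 345.533 and 328.219 in trained samples. The groups overlapped, since isocaloric trained replicate 4 lay below control trained replicate 2. The 8 alcohol samples had a lowest signal of 303, a median of 330 and a highest of 357, between the other diets. Sod2 rose in the isocaloric diet against control by 0.27 (SE 0.075, adjusted p = 0.0401, limma), a 1.2-fold higher level with 6 of 6 samples on that side.

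With any 1 array left out the Sod2 difference stayed between 0.22 and 0.31, while its adjusted p ran from 0.0138 to 0.193 (limma). The threshold was missed without isocaloric trained replicate 1 or 2, isocaloric naive replicate 1 or 2, control naive replicate 2, or control trained replicate 1 or 2. It was also missed without alcohol naive replicate 3, which enters only through the shared spread and adjustment. Without the arrays high in Ttr the value was 0.24 (adjusted p = 0.173), and without these and control naive replicate 2 it was 0.21 (adjusted p = 0.393, limma). With each array centred on its own median the value was 0.16 (adjusted p = 0.22, limma). Sod2 was -0.13 in alcohol against isocaloric (adjusted p = 0.229) and 0.13 in alcohol against control (adjusted p = 0.192, limma).

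Sod1, the copper and zinc enzyme of the cytosol, ranged from 1149 to 1305 in the isocaloric diet, 1203 to 1464 in the alcohol diet and 1287 to 1619 in the control diet. Its log2 difference was 0.19 for alcohol against isocaloric (95% interval 0.06 to 0.31, adjusted p = 0.0903, limma). For isocaloric against control it was -0.21 (95% interval -0.36 to -0.06, adjusted p = 0.076, limma), and neither passed. Alcohol and control differed by -0.026 (95% interval -0.16 to 0.11).

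Txn1, the small protein that reduces peroxiredoxins, had the signals 943.378 and 895.357 in isocaloric naive samples. Isocaloric trained samples gave 1079.24, 1319.59, 1006.07 and 1020.36. The control diet gave 1164.57 and 1772.45 in naive and 1150.35 and 1161.93 in trained samples. Of the 4 control values 3 lay close together and the fourth, control naive replicate 2, far above them. The 8 alcohol samples ran from 954 to 1189 with a median of 1155. Txn1 fell in the isocaloric diet against control by 0.36 (SE 0.099, adjusted p = 0.0374, limma), a 1.28-fold lower level, in 5 of 6 isocaloric samples.

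Without control naive replicate 2 the Txn1 difference was -0.21 (adjusted p = 0.268, limma). The threshold was also missed without isocaloric trained replicate 1, 3 or 4, isocaloric naive replicate 1 or 2, or control trained replicate 1 or 2, with adjusted p from 0.0561 to 0.15 (limma). In these fits the difference itself lay between -0.38 and -0.34, near the -0.36 over all arrays. Without the arrays high in Ttr it was -0.34 (adjusted p = 0.167), and without these and control naive replicate 2 it was -0.19 (adjusted p = 0.454, limma). Without control naive replicate 1, which leaves replicate 2 as the lone naive control, it was -0.51. Txn1 was 0.15 in alcohol against isocaloric (adjusted p = 0.296) and -0.20 in alcohol against control (adjusted p = 0.125, limma).

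Among the members, the peroxiredoxins passed the threshold in none of the averaged diet comparisons. Prdx4, which is not a member, fell in alcohol against control by 0.43 (SE 0.141, adjusted p = 0.0382, limma). Prdx2, an abundant cytosolic peroxiredoxin of neurons, ranged from 1053 to 1395 in the isocaloric diet, 1166 to 1462 in the alcohol diet and 1207 to 1450 in the control diet. It was 0.21 in alcohol against isocaloric (SE 0.062, adjusted p = 0.067, limma) with 7 of 8 alcohol samples on that side. Prdx6, which uses glutathione and also cleaves phospholipids, ranged from 431 to 563, 528 to 723 and 465 to 711 in the same order of diets. It was 0.26 in alcohol against isocaloric (SE 0.088, adjusted p = 0.0953, limma) with 8 of 8 samples on that side. Both sets of ranges overlapped.

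The probe set of Prdx1 or Prdx1l1 ranged from 746 to 841 in the isocaloric diet, 788 to 1091 in the alcohol diet and 838 to 1312 in the control diet. It was -0.31 in isocaloric against control (SE 0.10, adjusted p = 0.0642, limma), in 6 of 6 isocaloric samples, and -0.17 without control naive replicate 2. Prdx1 makes a cytosolic peroxiredoxin. The annotation gives this probe set both symbols, so its signal is not assigned to either gene. Prdx5, found in mitochondria and peroxisomes, ranged from 575 to 673 in the isocaloric and 600 to 705 in the alcohol diet, with a difference of -0.012 (95% interval -0.14 to 0.11). In the control diet it ranged from 657 to 804, and alcohol against control was -0.15 (adjusted p = 0.12, limma).

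Catalase, the peroxisomal enzyme that breaks down hydrogen peroxide, went against most members in sign. Cat ranged from 214 to 279 in the isocaloric diet, 154 to 259 in the alcohol diet and 143 to 261 in the control diet, so the diets overlapped. It was -0.24 in alcohol against isocaloric (SE 0.102, adjusted p = 0.182) and 0.24 in isocaloric against control (SE 0.121, adjusted p = 0.232, limma), and neither passed. Between alcohol and control the difference was -0.0039 (95% interval -0.24 to 0.23).

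Counted together, 1 of the 10 members rose and 0 fell in alcohol against isocaloric. Over all 9520 probe sets tested, 3.06% passed in that comparison, 1.47% higher and 1.59% lower. The median log2 difference of the members was 0.19, against -0.018 over all probe sets tested, with 7 members above 0 and 3 below. An unadjusted p under 0.05 (limma) was found for 8 of the 10 members, against 21.7% of all tested. The members are bright, from the 78.8th (Cat) to the 98.6th (Gpx4) percentile of mean level, so all probe sets tested are not matched to them in level. With quantile normalisation Gpx4 went from 0.31 to 0.22, Prdx2 from 0.21 to 0.14, Sod1 from 0.19 to 0.12 and Txn1 from 0.15 to 0.079. Gpx1 stayed at 0.46 and Cat at -0.24, and Sod2 went from -0.13 to -0.15. In isocaloric against control, 1 member rose (Sod2) and 2 fell (Gpx4 and Txn1), where 7.05% of all tested passed, 4.24% higher and 2.8% lower. The members' median there was -0.19 against 0.025 over all, with 8 below 0 and 2 above, and 7 members had an unadjusted p under 0.05 (limma), against 25.1% of all tested. In alcohol against control 0 of 10 passed, where 19.9% of all tested did, 11.3% higher and 8.61% lower. There 2 members had an unadjusted p under 0.05 (limma), against 33.6% of all tested, and the median was -0.045.

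Centring each array on its median changed the background. Of all calls, the share that was higher went from 48.1% to 88.6% in alcohol against isocaloric, from 60.2% to 19.1% in isocaloric against control and from 56.7% to 46.4% in alcohol against control. The 3 called members kept their directions under it.

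The control diet without its 2 arrays whose processing notes name the MAS5 algorithm keeps 1 array per training state. These are control naive replicate 2, which stood apart, and control trained replicate 1, which is high in Ttr. The count for isocaloric against control depended on the control arrays. It was 8 without control naive replicate 1 and 7 without the 2 control arrays whose processing notes name the MAS5 algorithm. It was 1 without control naive replicate 2, control trained replicate 1 or 2, isocaloric trained replicate 1, or isocaloric naive replicate 1 or 2. Without the 4 arrays high in Ttr it was 0. The share of all probe sets called moved with it: 24.8% without control naive replicate 1, 19.2% without the MAS5 arrays, 1.17% without control naive replicate 2 and 0.704% without the arrays high in Ttr. For alcohol against isocaloric it was 4 without control naive replicate 1 or 2, which enter only through the shared spread. It was 2 without alcohol trained replicate 1 or alcohol naive replicate 4, and 0 without isocaloric naive replicate 1 or 2. Of all tested, 6.84% and 6.82% passed without control naive replicate 1 and 2, and 0.294% and 0.158% without isocaloric naive replicate 1 and 2. For alcohol against control it was 3 without control naive replicate 1, where 31.8% of all tested passed.

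**Figure D3:**
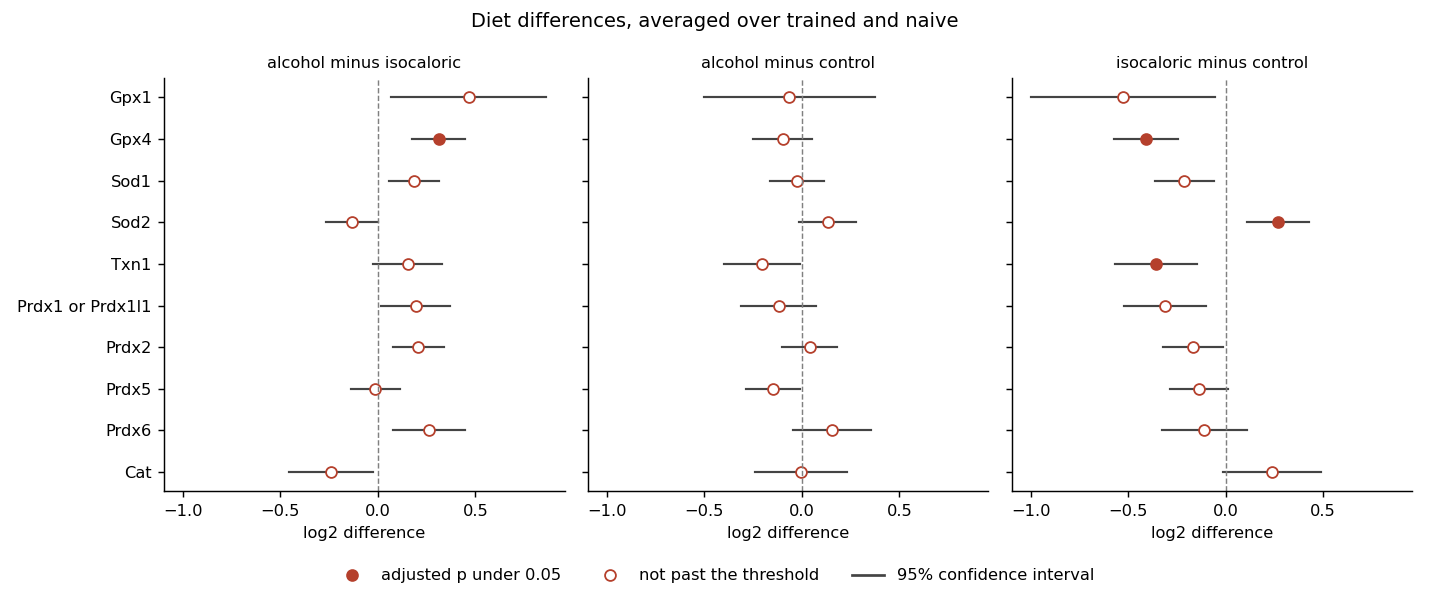
Log2 differences of the 10 members in the 3 diet comparisons, averaged over trained and naive samples, with 95% confidence intervals; filled points have an adjusted p under 0.05 (limma). Gpx4 is filled at 0.31 for alcohol minus isocaloric, and Gpx4, Txn1 and Sod2 are filled at -0.41, -0.36 and 0.27 for isocaloric minus control.

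**Figure D4:**
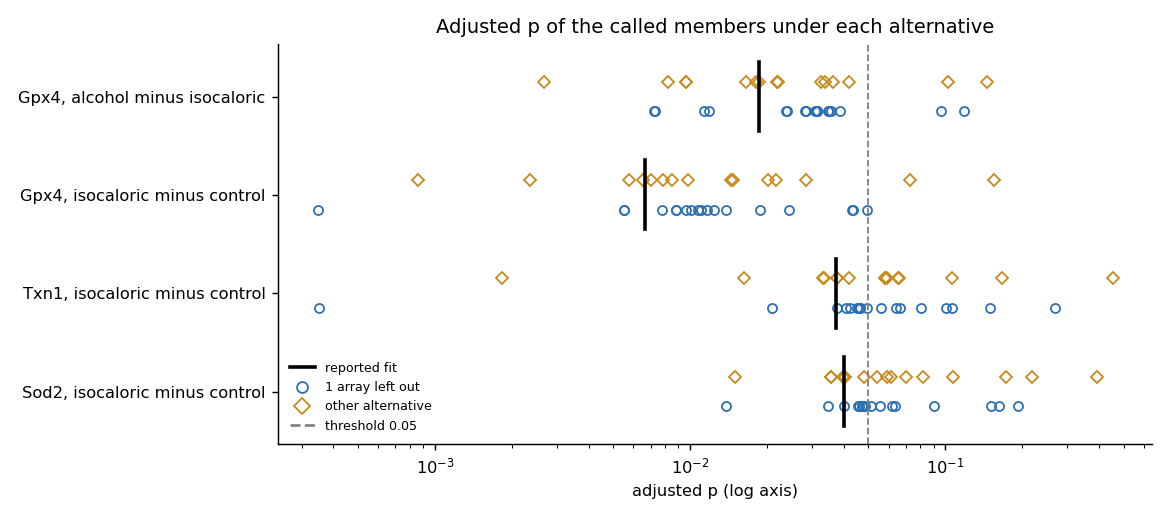
Adjusted p (log axis, limma) of the 4 calls under each of the 33 alternatives: circles leave out 1 array, diamonds are other settings, black bars the reported fit and the dashed line the threshold of 0.05. Gpx4 passed in 29 and 31 of the 33 alternatives, Txn1 in 17 and Sod2 in 16.

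Control naive replicate 2 was the highest of the 18 arrays for 5 members and the lowest for 2, Sod2 and Cat. On average over groups, 7 of the 10 members were lowest in isocaloric naive samples and 6 were highest in control naive samples. Both groups hold 2 samples, and means of 2 vary more than means of 4. These counts were not set against the share over all probe sets, so they do not describe a trait of the members. The endothelial and mural markers, 8 of 9 on the array, summed to 546 to 608 in the control diet against 875 to 1025 in the isocaloric and 885 to 1064 in the alcohol diet. All 5 of those tested rose against control in both diets at an adjusted p under 0.05 (limma). Over all probe sets tested, 19.9% passed for alcohol and 7.05% for isocaloric against control. Astrocyte markers (9 of 9) summed to 15012 to 18866 in the control, 13251 to 16304 in the isocaloric and 12801 to 17586 in the alcohol diet. Microglia markers (9 of 9) summed to 1847 to 2732, 1683 to 1928 and 1823 to 2165 in the same order. In isocaloric against control 1 of 9 tested astrocyte markers fell (Slc1a3, -0.36) and 1 of 7 tested microglia markers (C1qa, -0.52). In alcohol against control 1 astrocyte marker fell (Aqp4, -0.28) and 0 microglia markers. In both comparisons 0 markers of these lists rose past the threshold. Of 7 blood markers 3 were on the array, and they summed to 999 to 1430 in the control, 694 to 1093 in the isocaloric and 563 to 1127 in the alcohol diet. The 1 blood marker tested fell against control by 0.50 in the isocaloric and 0.56 in the alcohol diet. No marker was listed at 0, and the part of these cell types in the members' differences was not tested.

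For training no member passed the threshold. Averaged over the 3 diets, 0 of 10 members passed the threshold for trained against naive and 0 had an unadjusted p under 0.05 (limma), where 0.0105% of all tested passed. Gpx1 had the largest difference, 0.29 (95% interval -0.07 to 0.64, adjusted p = 0.886, limma). The other members lay between -0.09 and 0.04.

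Single diets were compared next. For trained against naive, 0 members passed in the alcohol, isocaloric or control diet, where 0%, 0% and 0.0315% of all tested did. The members with an unadjusted p under 0.05 numbered 0, 1 and 2 (limma), against 8.59%, 7.12% and 10.9% of all tested. In the control diet Gpx4 was -0.33 (adjusted p = 0.286) and Cat 0.49 (adjusted p = 0.315, limma). Control naive replicate 2 stood apart here: Gpx4 was 2196.76 on it against 1794.51 on replicate 1, and Cat 143.04 against 215.791. A fit without control naive replicate 1 has that array as the lone naive control, so it cannot separate training from that array. For alcohol against isocaloric, 0 passed in naive (0.0735% of all tested) and 0 in trained samples (0.399%), with 3 at an unadjusted p under 0.05 in each (limma), against 12.4% and 14.7% of all tested. Gpx4 was 0.35 in naive and 0.27 in trained samples, with adjusted p of 0.191 and 0.153 (limma).

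The test of whether training acted differently by diet gave no call either. For alcohol against isocaloric 0 members passed, where 0% of all tested did, and 0 had an unadjusted p under 0.05 (limma). Tests against the control diet were added after the data were seen. For isocaloric against control 0 members passed (0.179% of all tested), and Gpx4 was 0.53 (adjusted p = 0.141), Txn1 0.57 (adjusted p = 0.211) and Cat -0.66 (adjusted p = 0.227, limma). For alcohol against control 0 passed (0.0315% of all tested), and Cat was -0.69 (adjusted p = 0.206, limma). In each of these comparisons with the control diet 4 members had an unadjusted p under 0.05 (limma), against 13.9% and 13.1% of all tested. Control naive replicate 2 enters both. Txn1 was 1772.45 on it, against 1164.57 on control naive replicate 1 and 1150.35 and 1161.93 in control trained samples. Cat was 143.04 on it, the lowest of the 18 arrays, against 215.791 on control naive replicate 1.

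**Figure D5:**
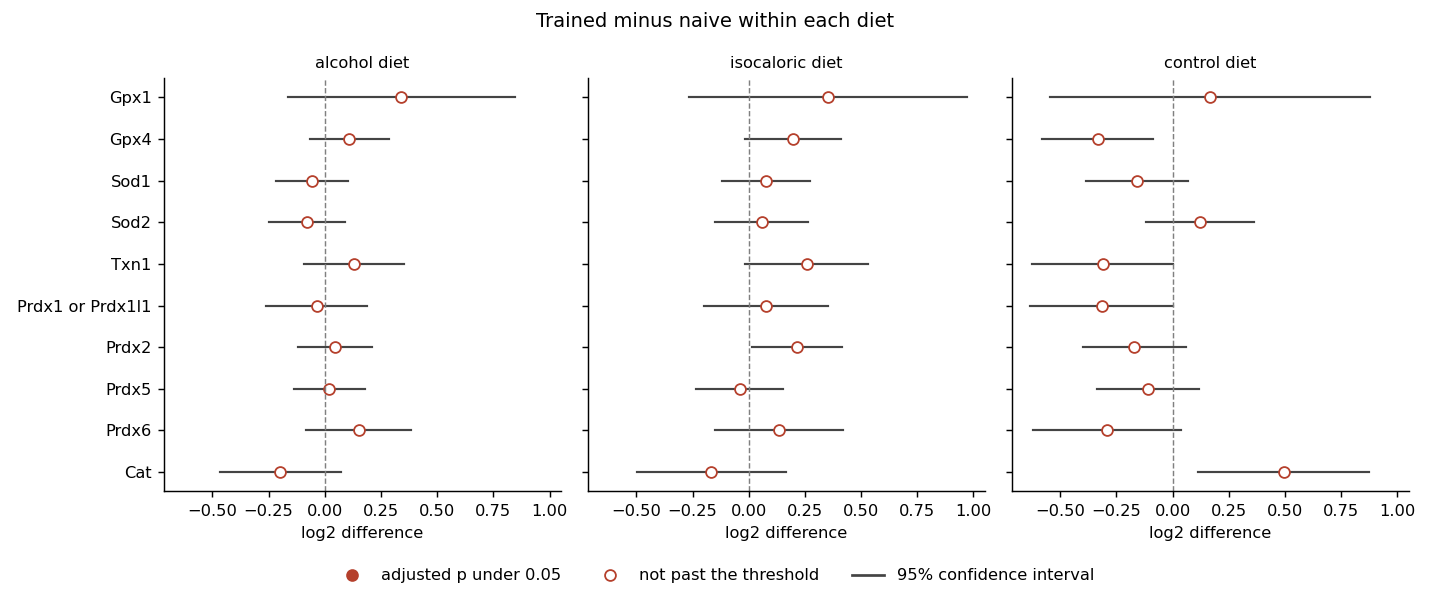
Log2 difference of trained minus naive samples for the 10 members within each diet, with 95% confidence intervals; open points did not pass the threshold (limma). No point is filled, and in the control diet Cat lies at 0.49 and Gpx4 at -0.33.

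Other genes of the pathway were counted from 5 lists with 78 genes, of which 57 were tested. In alcohol against isocaloric 4 rose and 1 fell, 8.77% of the 57 against 3.06% of all tested. Park7, a redox-sensitive protein also known as DJ-1, rose by 0.23 (SE 0.046, adjusted p = 0.0145, limma). Mt2A, a metallothionein, rose by 0.32, Gstm7, a glutathione transferase, by 0.36 and Taldo1, an enzyme of the pentose phosphate pathway, by 0.35. Txnl1, a thioredoxin-like protein, fell by 0.37 (SE 0.062, adjusted p = 0.00525, limma), while another tested probe set for it gave -0.07. Gstm and Gsta genes and metallothioneins have close paralogs, so their signals are uncertain.

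In alcohol against control 2 of the 57 rose and 10 fell, 21.1% of the list, near the 19.9% of all tested. Park7 rose by 0.17. Sqstm1, an autophagy receptor, rose by 0.22, and its 2 other tested probe sets gave 0.06 and 0.31. The falls were led by Gsto1, a glutathione transferase, at -0.34 (SE 0.071, adjusted p = 0.00399, limma). Txnl1 fell by 0.31 (its other tested probe set gave 0.09), Selenos, a selenoprotein of the endoplasmic reticulum, by 0.28 and Gsta1 by 0.43. Glrx3, a glutaredoxin, fell by 0.38 and Gstk1 by 0.31. The remaining falls were Selenop at -0.33, Prdx4, a peroxiredoxin, at -0.43, Sephs2 at -0.33 and Gstm5 at -0.36. Of the 13 tested genes for glutathione synthesis, recycling and conjugation 4 fell, with a list median of -0.19.

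In isocaloric against control 0 of the 57 rose and 6 fell, 10.5% of the list against 7.05% of all tested (4.24% higher and 2.8% lower). These were Gsto1 at -0.36 (SE 0.077, adjusted p = 0.0131, limma), Mt2A at -0.38, Gstm5 at -0.52, Selenos at -0.28, Mt3 at -0.42 and Selenow at -0.28. Selenos and Selenow are selenoproteins, as Gpx4 is, and Mt3 is the brain-enriched metallothionein. The median of the 57 genes was -0.13, against 0.025 over all probe sets tested. Of the 12 tested Nrf2 regulators and targets, 0 passed. The same held for the 10 thioredoxin and glutaredoxin partners and the 7 other peroxide and superoxide enzymes tested. Lists this short can hold 0 calls where 7.05% of all tested pass. For training 0 of the 57 passed.

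The genes with the most similar group means were found for the 3 members with the widest range, by the root mean square difference of centred log2 means over the 6 groups. For Gpx1 these were St3gal5 (0.088) and Cib1 (0.11). For Gpx4 they were Grcc10 (0.032) and Rpl23 (0.041). For Txn1 they were Dph3 (0.032) and Cops2 (0.034).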

How the data were processed

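The deposited values are linear intensities, 1 for each probe set of an array. MAS5 is named for control naive replicate 1 and control trained replicate 2 per the submitters' processing notes. The summary method of the other arrays is not stated. The 2% trimmed mean was about 150 throughout, a common scaling that can hide a change of total RNA.

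Values were analysed as log2(intensity + 6.06), with the 10th percentile of the values as constant, which understates changes of dim probe sets. Affymetrix controls (57) and probe sets under the 40th percentile of mean level were left out, which kept 9520 for testing. Means of the 6 groups were fitted on all 18 arrays with limma 3.58.1 under R 4.3.3 (lmFit, eBayes with a trend), and the code was tested on simulated data. Tests were two-sided with Benjamini-Hochberg adjustment over all probe sets tested and a threshold of 0.05. Averaged diet differences weight trained and naive equally, and the training difference weights diets equally.

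Gene symbols came from the platform annotation: 12789 probe sets had 1 symbol, 312 several and 2822 none. Named were all member probe sets and the 2 genes nearest to each of 3 members. Pathway genes past the threshold in an averaged comparison were also named, each by its probe set of highest mean. The members and lists were chosen with earlier results of these data known. In 33 alternatives, normalization, constant, filter, model, covariates and samples were changed, 2 of them added after seeing the data. Python 3.11.15, pandas 2.3.3, numpy 2.4.6 and matplotlib 3.10.9 were used.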

Additional observations from a re-analysis of the deposited data

Results flagged for a closer look

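Of 30 checks of a member within a group of 4 samples, 3 found a sample whose gap to the others was more than 0.829 of the group's range, and chance gives about 1 in 20. Prdx1 or Prdx1l1 had 841.428 in isocaloric trained replicate 3, one of the arrays high in Ttr, against 777 to 787 in the other 3 samples. Prdx2 had 1394.98 in isocaloric trained replicate 2, against 1205 to 1224 in the others. Prdx5 had 705.141 in alcohol naive replicate 2, another array high in Ttr, against 600 to 616 in the others. The part of the Ttr-rich tissue in these values was not tested.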

How the results depend on the processing

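Of the 4 calls, none reversed under the 33 alternatives. For alcohol against isocaloric the count of members was 4 with median centring, 2 with only the groups compared, 5 with array weights, 0 with the Gapdh ratio as a covariate, 0 without the arrays high in Ttr, 2 without the MAS5 arrays and 2 without control naive replicate 2 and the arrays high in Ttr. Leaving out 1 array gave 0 to 4. For alcohol against control it was 2 without the MAS5 arrays and 0 to 3 with 1 array left out. For isocaloric against control it was 5 with median centring, 1 with no filter, 1 with only the groups compared, 1 with no trend, 1 with the Gapdh ratio, 0 without the arrays high in Ttr, 7 without the MAS5 arrays and 0 without control naive replicate 2 and the arrays high in Ttr. Leaving out 1 array gave 1 to 8. For alcohol against isocaloric in naive samples array weights gave 3, and for training in the control diet the count was 1 without the MAS5 arrays and 0 to 5 with 1 array left out. Where fits leave a control group with 1 array, it is assumed to vary like the others, and a higher count does not show a stronger effect. The cause of these changes was not tested. The share of all probe sets called moved as well. In alcohol against isocaloric it was 3.06% in the reported fit and 6.7% with median centring. It was 5.78% with only the groups compared, 12.7% with array weights and 0.263% with the Gapdh ratio. In isocaloric against control it was 7.05% in the reported fit and 12.8% with median centring. It was 2.81% with no filter, 1.81% with only the groups compared, 5.53% with no trend and 6.69% with the Gapdh ratio.

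Replicate numbers did not pair the samples: of 36 same-numbered pairs, 4 correlated over 0.1 (-0.23 to 0.13, median -0.026). With the replicate block 1 member passed in isocaloric against control, Gpx4 at -0.41 (adjusted p = 0.0201, limma), and Txn1 (adjusted p = 0.058) and Sod2 (adjusted p = 0.0704, limma) did not. The block turned Prdx5 in alcohol against isocaloric to 0.0028 and Cat in alcohol against control to 0.0949.

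Median centring moved the median of all differences in isocaloric against control from 0.025 to -0.085.

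The other sign changes were of differences that did not pass in the reported fit, most of them near 0. The largest there were Prdx1 or Prdx1l1 in alcohol against control (-0.12) and Prdx6 in isocaloric against control (-0.11). In alcohol against isocaloric, Prdx5 was 0.0616 with median centring and -0.0389 to 0.0152 with 1 array left out. In alcohol against control, Gpx1 was 0.15 without control naive replicate 2 and the arrays high in Ttr (-0.25 to 0.12 with 1 array left out). Sod1 was 0.0764 in that setting and 0.0053 without the arrays high in Ttr (-0.10 to 0.0451). Cat was 0.0063 without the latter and 0.17 without the MAS5 arrays (-0.15 to 0.14). Prdx2 was -0.0053 without the MAS5 arrays, and Prdx1 or Prdx1l1 ran from -0.26 to 0.024. In isocaloric against control, Prdx6 was 0.0047 without control naive replicate 2 and the arrays high in Ttr (-0.25 to 0.0348). For training without that set, Gpx4 was 0.0037 (-0.0578 to 0.0392), Prdx5 0.0502 (-0.0885 to 0.0020) and Prdx6 0.0662 (-0.10 to 0.0943). Prdx5 was 0.0050 without the arrays high in Ttr, Prdx6 0.0068 with quantile normalisation and Txn1 -0.0782 without the MAS5 arrays (-0.0758 to 0.13). With 1 array left out Sod1 ran from -0.0936 to 0.0012, Prdx1 or Prdx1l1 from -0.19 to 0.0032 and Cat from -0.0524 to 0.14. Other changes of setting left these directions as reported.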

Other observations

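As a median over the 10 members, control naive replicate 2 lay 0.35 above the mean of all 18 arrays on the log2 scale. The isocaloric naive arrays lay at -0.20 and -0.21, and the other control naive array at 0.02. The median signal of oligodendrocyte markers (7 of 8 on the array, summed) was 10597 in the isocaloric, 12046 in the alcohol and 11709 in the control diet, and of neuron markers (7 of 8) 10869, 11067 and 10586.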
